A study of Desmophyllum pertusum with 36 samples.

Results

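The response of the cold-water coral Lophelia pertusa (Desmophyllum pertusum) to lowered seawater pH was examined at week 2, the earliest of 3 sampling times. It was read from 6 of the 18 libraries of the study: polyps of colonies 1, 3 and 4 held at pH 7.6, and polyps of the same colonies held at pH 7.9. Each colony gave 1 library at each pH, so n = 3 at each pH, and the libraries were paired by colony. The members were chosen by the labels: colony, pH and the first of the numbered time points, which was taken as week 2 from the order of the weeks in the design text. All polyps came from coral fragments kept at their pH during the experiment, and the colonies are genetically distinct, so each stands for 1 genotype. The labels do not say whether fragments stood in separate tanks, so p-values measure the spread between these libraries only.

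Of 75743 transcripts in the count table, 49344 had 10 or more counts in 3 or more of the 6 libraries and were tested. The other 26399 were set aside, among them 1909 with no count at week 2. At the edge of this filter, 997 transcripts had a third-highest count of 10 and were kept (median 57 counts over the 6 libraries), and 1095 had 9 and were not (median 52). Transcripts are numbered in the table and carry no gene names, so no pathway, marker of polyp tissue or gene function could be examined.

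As background, seawater of lower pH holds less carbonate, the ion that stony corals combine with calcium to build an aragonite skeleton. Corals raise the pH of the fluid beneath their calcifying cells, moving protons out with calcium pumps and bringing in carbon as bicarbonate, with carbonic anhydrases speeding the exchange of bicarbonate and carbon dioxide. Lophelia pertusa has no algal symbionts and builds reefs in deep, cold water, where it feeds on particles and small animals.

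The week 2 libraries held 18042191 to 23845334 counts. Totals were 20797100 ± 2765680 at pH 7.6 and 20072800 ± 1802450 at pH 7.9 (SD, n = 3; p = 0.75 in an exact two-sided permutation within pairs, where 3 pairs allow no p below 0.25). Lane 1 gave 31.9 to 81.8% of the counts of a week 2 library, against 49.97 to 50.3% in the 12 later libraries, so the weeks were not loaded alike on the sequencer. The 18 libraries were grouped by likeness of expression into 3 sets, A, B and C. That number was set, not found from the data, and equals the number of colonies. At week 2, set A held both libraries of colony 1 and set C both of colony 4. The library labelled colony 3, pH 7.6 was in set B, while the library labelled colony 3, pH 7.9 was in set C. The library labelled colony 3, pH 7.9 thus goes against its label and may come from colony 4, a doubt that these data leave unsettled. The labels were kept as given. The colony 3 comparison may therefore set different colonies against each other, so that its fold changes cannot be told apart from colony differences, and the main counts are given with and without it.

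How far the libraries stood apart was described with Spearman's correlation of log2 CPM (counts per 1e6 counts, scaled by trimmed mean of M values, TMM) across the 49344 transcripts, which share library depth. It was 0.975 between the colony 1 libraries at pH 7.6 and pH 7.9, 0.911 between those of colony 4 and 0.870 between those of colony 3. The libraries labelled colony 3 and colony 4 at pH 7.9 also stood at 0.975, as close as the colony 1 pair. Transcripts seen in only one library of a pair, where 0 counts faced 100 or more, numbered 0 in the colony 1 pair and 0 in the colony 4 pair. In the colony 3 pair there were 32 seen only at pH 7.6 and 21 seen only at pH 7.9. Between the libraries labelled colony 3 and colony 4 at pH 7.9 there were 0.

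The size of the pH contrast differed widely between colonies. In colony 1, 1729 transcripts were more than 2-fold higher at pH 7.6 (3.50% of those tested) and 1168 more than 2-fold lower (2.37%). Colony 4 had 5981 higher (12.1%) and 5309 lower (10.8%), although both its libraries lay in set C. Colony 3 had 6798 higher (13.8%) and 7886 lower (16%). The median absolute log2 fold change was 0.27 in colony 1, 0.54 in colony 4 and 0.61 in colony 3.

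These counts rest on 1 library per pH and colony and have no replicate check, so other pairs of libraries serve as a scale. The libraries labelled colony 3 and colony 4 at pH 7.9, of the same set and pH, differed past 2-fold in 5.46% of transcripts, close to the 5.87% of the colony 1 pH pair. Libraries of the same pH in different sets differed in 24.1 to 42.8%, and the 2 lanes of a single library in 3.20 to 6.59%. A lane holds only part of the counts of its library (3664793 to 16433031). The lane shares therefore carry more counting noise and are not on the scale of whole libraries. The colony 4 contrast, at 22.9%, was thus larger than that of the only same-pH pair within set C. The colony 4 library at pH 7.6 was also the most uneven in lane loading, with 81.8% of its counts from lane 1. In a chi-square test after Benjamini-Hochberg adjustment, 11 of its transcripts differed between lanes. There were 13 in the library of colony 3 at pH 7.6, whose lane 1 share was 45.5%. The colony 4 library at pH 7.9, with a lane 1 share of 51.6%, had 5, and the remaining week 2 libraries had 0. Lane 2 of the colony 4 library at pH 7.6 held only 3664793 counts, so single transcripts could pass less easily there. Over transcripts with 50 or more counts, its chi-square per degree of freedom was 1.31, the highest at week 2. The library of colony 3 at pH 7.6 had 1.07, and the remaining week 2 libraries had 1.02 to 1.04. Its lanes also differed past 2-fold most often, at 6.59%. The colony 4 library at pH 7.6 correlated at 0.946 and 0.944 with the pH 7.6 libraries of that colony at weeks 4.5 and 8.5. These lay above its 0.924 with the week 2, pH 7.9 library of that colony on the same 18-library scale. The week 2, pH 7.9 library did not follow pH in this way, at 0.963 with pH 7.6 and 0.953 with pH 7.9 of week 4.5, and at 0.942 and 0.960 with those of week 8.5. The part of lane loading in the size of the contrast was not tested.

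**Figure D1:**
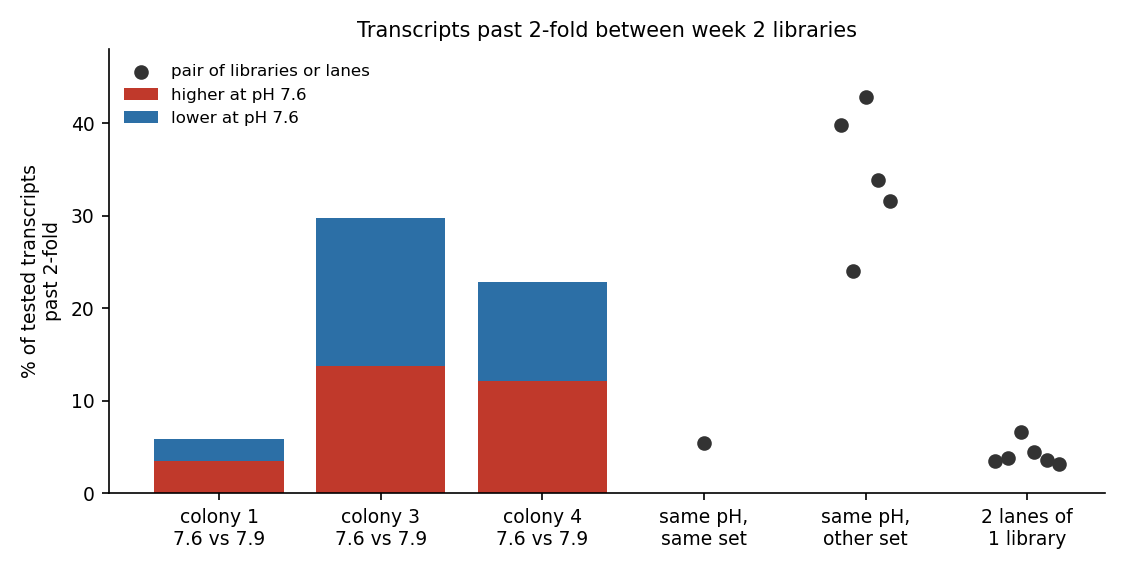
Percent of the 49344 tested transcripts that differed by more than 2-fold between libraries of week 2. Bars give the pH contrast in each colony, split into transcripts higher (red) and lower (blue) at pH 7.6, and points give pairs of libraries of the same pH, or the 2 lanes of each library. Colony 1 (5.87%) lies at the level of the same-set pair (5.46%), and colonies 3 (29.8%) and 4 (22.9%) lie well above it.

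The balance of higher and lower transcripts depended on the scaling. After TMM scaling, 59.7% of the transcripts past 2-fold in colony 1 were higher at pH 7.6, with 46.3% in colony 3 and 53.0% in colony 4. Scaled by library totals, the shares were 68.7%, 32.4% and 72.5%. The median log2 fold change over all transcripts was then 0.08 in colony 1, -0.26 in colony 3 and 0.19 in colony 4, where TMM gave 0, -0.03 and -0.05. In polyps, which are bulk samples, fewer cells of a type and less RNA per cell cannot be told apart.

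More strongly expressed transcripts differed less often by 2-fold. In the lowest of 4 equal groups by mean level (median 0.829 CPM), 12.8% of transcripts passed 2-fold in colony 1, 43.8% in colony 3 and 29.5% in colony 4. In the highest group (median 28.4 CPM) the shares were 2.12%, 16.9% and 16.7%. The larger contrast of colonies 3 and 4 was therefore present among well counted transcripts too.

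Colonies 1 and 4 moved in part together, and colony 3 moved with neither. Across transcripts, Pearson's r of the log2 fold changes was 0.26 between colonies 1 and 4, 0.02 between colonies 1 and 3, and -0.03 between colonies 3 and 4. In the highest of the 4 level groups r was 0.42 between colonies 1 and 4, against 0.18 in the lowest, and 0.05 and 0.02 for the pairs that include colony 3. These are descriptions across transcripts, which are not independent replicates, and the colony pairs share no library. Of 1173 transcripts past 2-fold in both colonies 1 and 4, 81.8% had the same direction (588 higher and 372 lower). For colonies 1 and 3 it was 55.9% of 1339, and for colonies 3 and 4 it was 47.8% of 4075.

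**Figure D2:**
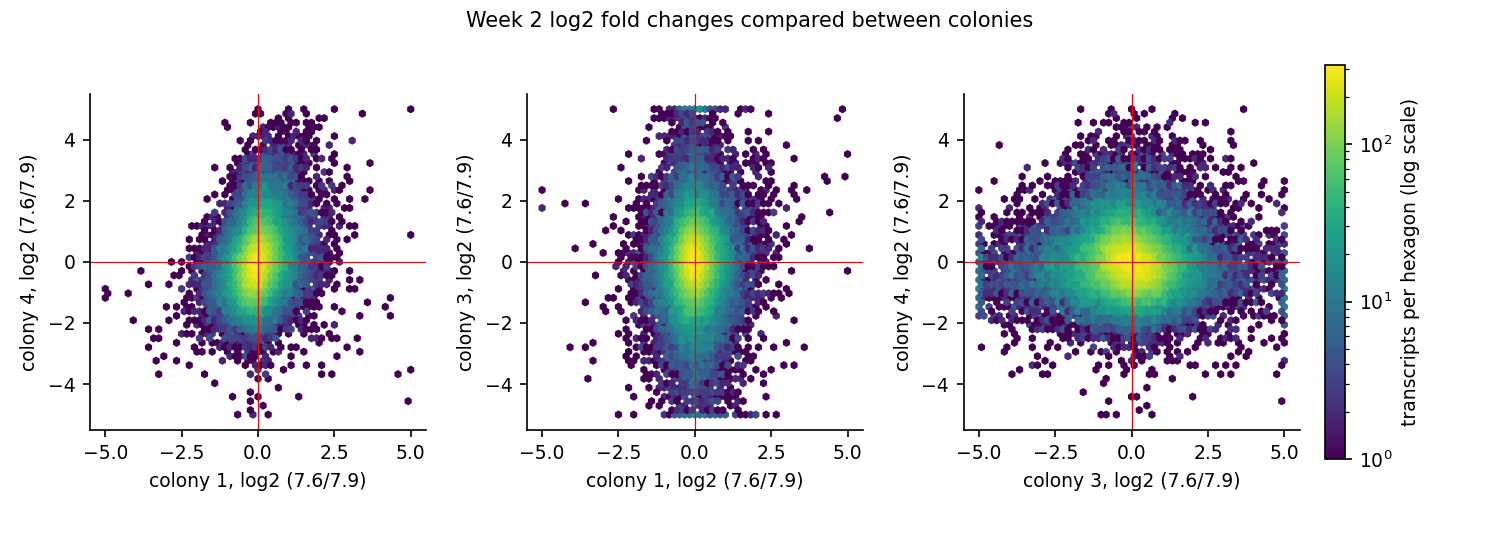
Log2 fold change at pH 7.6 over pH 7.9 at week 2 in one colony against another, with hexagons coloured by the number of transcripts on a log scale and values beyond 5 in either direction drawn at the edge. The cloud of colonies 1 and 4 leans upward to the right (r = 0.26), and those with colony 3 show no lean (r = 0.02 and -0.03).

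The transcripts that moved alike in a pair of colonies were then looked up in the remaining colony, whose libraries took no part in the choice. Those 2-fold higher in both colonies 1 and 4 were higher in colony 3 in 339 of 588 cases (57.7%, against 48.9% of all transcripts), with a median log2 fold change of 0.14. Those 2-fold lower in colonies 1 and 4 were lower in colony 3 in 221 of 372 cases (59.4%, against 51.1%), with a median of -0.29. In both directions the share in colony 3 lay 8 to 9 percentage points above that of all transcripts. Looked up in colony 1, the 842 transcripts higher in colonies 3 and 4 were higher in 72.6% (49.7% of all transcripts), and the 1104 lower ones were lower in 64.1% (50.3%). In colony 4, the 414 higher in colonies 1 and 3 were higher in 66.7% (47.1% of all), and the 334 lower ones lower in 74.3% (52.9%). Colonies 1 and 4 already moved in part together (r = 0.26), so the lookups in colonies 1 and 4 can be raised without colony 3. Transcripts chosen in 1 colony alone were not set beside them, so these shares do not show that all 3 colonies agreed.

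Over all 3 colonies, 6425 transcripts were higher at pH 7.6 in every pair (13% of those tested) and 7419 were lower in every pair (15%). In 1648 transcripts the 3 libraries at pH 7.6 all lay above the 3 at pH 7.9 (3.34%), and in 1805 they all lay below (3.66%). Without colony 3 the shares were 14.9% and 14.4%, where only 2 libraries face 2 and separation is easier by construction. More than 2-fold differences in every colony were seen for 154 transcripts higher (0.312%) and 100 lower (0.203%) at pH 7.6. No transcript had 0 counts in all libraries of one pH and 10 or more in all of the other.

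The paired test asked which of these differences exceeded the spread between colonies. With edgeR's quasi-likelihood test and colony as block, 0 of 49344 transcripts passed an adjusted p of 0.05 (Benjamini-Hochberg, 0%), and the smallest adjusted p was 0.939. An unadjusted p below 0.05 was reached by 2208 transcripts (4.47%), 1065 higher (2.16%) and 1143 lower (2.32%). Limma-voom also called 0. DESeq2 called 117 of the 35950 transcripts to which it gave an adjusted p (0.325%), 84 higher (0.234%) and 33 lower (0.0918%). The 117 were chosen by p in the same libraries with the same block, so the following counts describe them and add no support. All had an unadjusted p below 0.05 in edgeR, against 4.47% of those tested. The same sign in all 3 colonies was seen in 115, where 13% of all transcripts were higher in each colony and 15% lower. Groups did not overlap in 94, against 3.34% (higher) and 3.66% (lower) of all.

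Each fit without a colony rests on 2 pairs of libraries only. Leaving out colony 3, edgeR called 3 of 49344 transcripts: Transcript_77070 and Transcript_66519 higher and Transcript_1156 lower, named here after their values were seen. Those 3 were also among the 117 of DESeq2, a fit that holds the same libraries. Leaving out colony 1 or colony 4 gave 0 in edgeR. The count at an unadjusted p below 0.05 was 4330 without colony 3, 2154 without colony 1 and 1345 without colony 4. For DESeq2 the count was 187 of 34994 without colony 3 (149 higher) and 102 of 34037 without colony 1 (43 higher). Without colony 4 it was 67 of 34994 (50 higher). The excess of higher transcripts thus did not hold without colony 1. With the library set as block instead of colony, edgeR called 67 of 49344 transcripts, 53 higher and 14 lower. This block treats the library labelled colony 3, pH 7.9 as one more of colony 4. The sets were drawn from these same counts. Part of the spread is then the gap between the libraries labelled colony 3 and colony 4 at pH 7.9. That pair differed past 2-fold in only 5.46% of transcripts, so a narrower spread and more calls can follow from the block itself. The library of colony 3 at pH 7.6 is alone in its set at week 2 and adds nothing to this pH contrast, which rests on 2 libraries at pH 7.6 and 3 at pH 7.9. Of the 67 transcripts, 34 were among the 117 and 46 had the same sign in all 3 colonies, in fits that share the same libraries.

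Since none passed the edgeR test, the transcripts named for week 2 are the 2 on each side with the smallest unadjusted p among those with a mean log2 CPM of at least 1 and the same sign in every colony. The rule therefore fixed their sign. Transcript_32223 was at 154, 96.9 and 157 CPM in colonies 1, 3 and 4 at pH 7.6, and at 26.3, 20.3 and 13.04 CPM at pH 7.9. All libraries at pH 7.6 lay above all at pH 7.9, and colony 4 had both the highest and the lowest value. Its log2 fold change was 2.79 ± 0.37 (SE, edgeR unadjusted p = 0.000151, adjusted p = 0.945), and DESeq2 gave an adjusted p of 3.85e-09.

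Transcript_2635 was at 313, 261 and 495 CPM in colonies 1, 3 and 4 at pH 7.6 and at 35.8, 53.0 and 32.1 CPM at pH 7.9. The groups did not overlap, and the widest contrast was in colony 4, with a log2 fold change of 3.94 against 3.12 in colony 1 and 2.30 in colony 3. Over the colonies it was 3.12 ± 0.42 (SE, edgeR unadjusted p = 0.000179, adjusted p = 0.945; DESeq2 adjusted p = 1.04e-10). Both transcripts had their smallest fold change in colony 3.

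On the lower side, Transcript_1156 stood at 10.4, 5.99 and 5.06 CPM in colonies 1, 3 and 4 at pH 7.6, and at 104, 38.7 and 64.0 CPM at pH 7.9. The least difference was again in colony 3, with a log2 fold change of -2.67 against -3.32 in colony 1 and -3.63 in colony 4. Its fitted log2 fold change was -3.23 ± 0.32 (SE, edgeR unadjusted p = 2.80e-05, adjusted p = 0.939). Without colony 3 the edgeR adjusted p was 0.0381.

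Transcript_75394 was scarcer, at 1.22, 0.660 and 0.644 CPM (24, 13 and 15 counts) in colonies 1, 3 and 4 at pH 7.6, and at 13.2, 7.23 and 7.31 CPM (239, 146 and 153 counts) at pH 7.9. Its log2 fold change was nearly equal in the colonies, at -3.33, -3.27 and -3.32, and -3.45 ± 0.36 in the fit (SE, edgeR unadjusted p = 3.80e-05, adjusted p = 0.939; DESeq2 adjusted p = 2.82e-09). The 4 transcripts had the same sign under each of 19 alternative fits, which was largely given by the rule that chose them in these libraries. The adjusted p passed 0.05 in 6, 6, 7 and 6 of them, in the order given here. These were every DESeq2 fit, the edgeR fit with the library set as block and, for Transcript_1156, edgeR without colony 3. Over these fits of edgeR, DESeq2 and limma-voom the adjusted p ran from 2.26e-10 to 1 for Transcript_32223, from 4.82e-16 to 1 for Transcript_2635, from 1.90e-15 to 1 for Transcript_1156 and from 2.82e-09 to 1 for Transcript_75394.

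**Figure D3:**
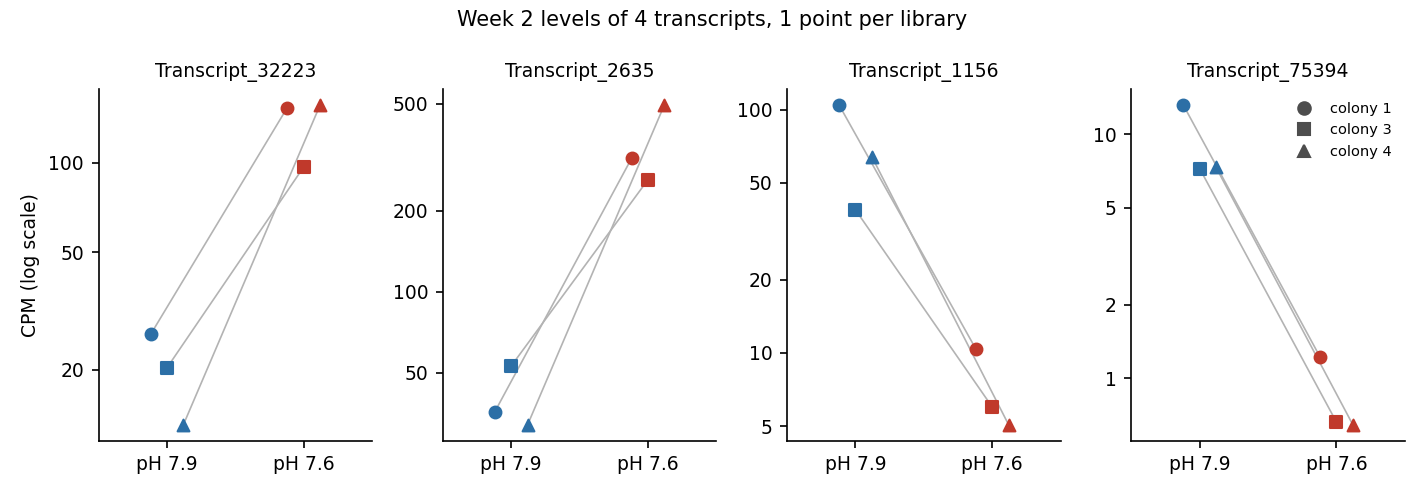
Levels in CPM, on log axes of different ranges, of the 4 transcripts named for week 2, with 1 point per library and lines joining the libraries of a colony. In each panel the 3 libraries at pH 7.6 lie wholly above (Transcript_32223, Transcript_2635) or wholly below (Transcript_1156, Transcript_75394) those at pH 7.9.

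Whether the week 2 contrast was the one seen later was asked in both directions. In the first, transcripts were ranked by their pH effect in the 12 libraries of weeks 4.5 and 8.5, and the 200 higher and 200 lower with the smallest p were looked up at week 2. In that later fit edgeR called 0 of 55625 transcripts (0%), with 3455 at an unadjusted p below 0.05, so the lists are ranks and not calls. At both later weeks the library labelled colony 1, pH 7.9 lay in set B with colony 3 at pH 7.6, and the library labelled colony 3, pH 7.9 lay in set A with colony 1 at pH 7.6. Of the 6 later pairs, 4 thus crossed sets as labelled, and the lists rest on a fit paired by those labels. Of the 200 higher later, 173 were higher at week 2 (86.5%), against 49.4% of all transcripts tested, with a median log2 fold change of 0.47 against -0.01. Among them, 74 were higher in every colony (37%, background 13%), and 43 had groups that did not overlap (21.5%, background 3.34%).

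By colony, the list higher later had a median week 2 log2 fold change of 0.56 in colony 1, 1.01 in colony 4 and -0.004 in colony 3. Its transcripts were higher in 169, 163 and 100 of 200 cases in colonies 1, 4 and 3. The shared direction was thus carried by colonies 1 and 4, while colony 3 had an even split.

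Of the 200 lower later, 150 were lower at week 2 (75%, against 50.6% of all), with a median log2 fold change of -0.33. In every colony 48 were lower (24%, background 15%), and 14 had groups that did not overlap (7%, background 3.66%). Colonies 1 and 4 had medians of -0.56 and -0.87, whereas in colony 3 the median was 0.30 and 63 of 200 were lower. With the library set as block in the later fit, the lower list shared 79 transcripts with the first, only 41.5% of it was lower at week 2, and the median turned to 0.41. Its medians were then -0.15 in colony 1, -0.19 in colony 4 and 1.52 in colony 3. Without colony 3 at week 2, 89% of the first lower list and 58.5% of the second were lower. The higher list made with the library set shared 144 transcripts with the first and was 87% higher at week 2.

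**Figure D4:**
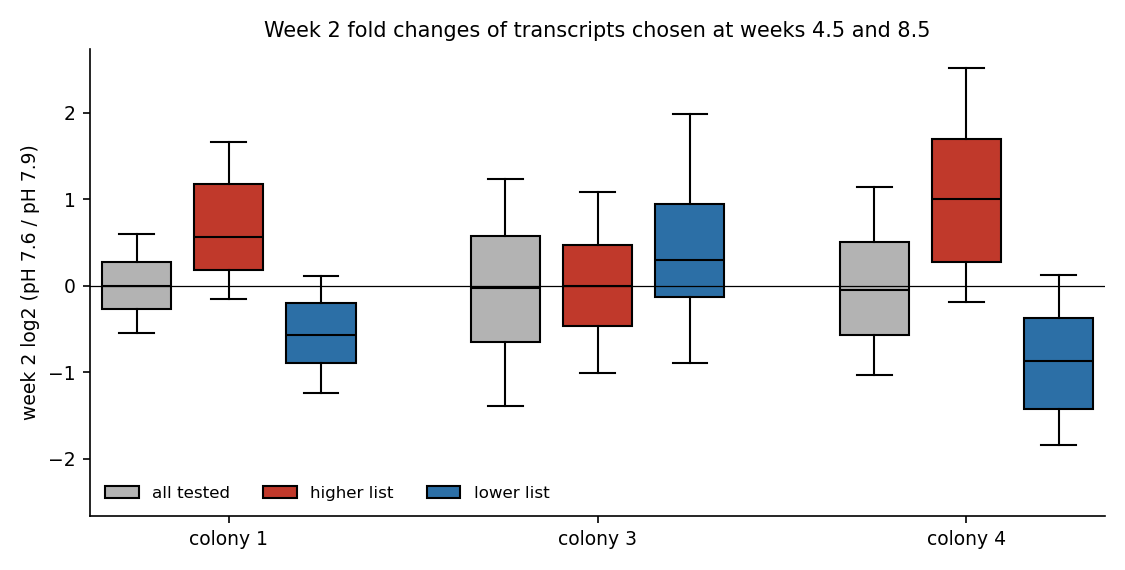
Week 2 log2 fold change, pH 7.6 over pH 7.9, in each colony for all tested transcripts (grey), the 200 ranked highest (red) and the 200 ranked lowest (blue) at weeks 4.5 and 8.5. Boxes span the quartiles around the median line and whiskers run from the 10 to the 90 percentile. Red and blue part from grey in opposite directions in colonies 1 and 4, and in colony 3 red lies near 0 (median -0.004) and blue above it (median 0.30).

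The transcripts named from the later weeks are the 2 on each side with the smallest p there, a mean log2 CPM of at least 1 and the same sign in all 6 later pairs. Transcript_2635, described above, was the only one of these 4 whose groups did not overlap at week 2, where its edgeR adjusted p was 0.945. Its later difference was 5.68 ± 0.62 in log2 units (SE; adjusted p = 0.0592 in edgeR). Week 2 minus later was -2.67 ± 0.91 (SE), which edgeR did not call. Transcript_68325 differed later by 1.62 ± 0.18 in log2 units (SE; adjusted p = 0.0592 in edgeR). At week 2 it was at 15.7, 13.8 and 9.40 CPM at pH 7.6 and at 19.4, 17.5 and 9.37 CPM at pH 7.9 in colonies 1, 3 and 4. These groups overlapped, and the week 2 difference was -0.22 ± 0.27 in log2 units (SE; adjusted p = 0.959 in edgeR).

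Transcript_58, with a later difference of -2.01 ± 0.25 in log2 units (SE; adjusted p = 0.0592 in edgeR), stood at week 2 at 5.40, 18.6 and 6.27 CPM at pH 7.6 and at 8.28, 11.1 and 11.3 CPM at pH 7.9 in colonies 1, 3 and 4. It was lower at pH 7.6 in colonies 1 and 4 and higher in colony 3, so that the groups overlapped. Transcript_2337 (later log2 fold change -1.43 ± 0.19, SE, edgeR adjusted p = 0.0698) had the same arrangement, at 8.76, 41.7 and 15.1 CPM at pH 7.6 against 13.7, 25.4 and 21.0 CPM at pH 7.9. The week 2 log2 fold changes were -0.24 ± 0.40 and -0.13 ± 0.35 (SE, edgeR adjusted p = 0.966 and 0.981), and their sign was not stable across the alternative fits.

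In the other direction, transcripts more than 2-fold changed in every colony at week 2 were looked up in the later weeks. Of the 154 higher, 151 passed the filter there, and 105 were higher at pH 7.6 in the later fit (69.5%, against 47.5% of all). Their median log2 fold change in that fit was 0.38. All 100 lower transcripts passed, and 88 of them were lower later (88%, against 52.5%), with a median of -0.63. The week 2 medians were 1.92 and -1.89. Both groups were chosen for their size at week 2, so smaller later medians follow in part from the choice. No fading of the response can be read from them. The median of their mean fold change over colonies was 0.05 at week 4.5 and 0.77 at week 8.5 for the higher group, and -0.25 and -1.10 for the lower group. At week 4.5, 78 of the 151 were higher (24447 of 49125 over all) and 69 of the 100 were lower (24678 of 49125). At week 8.5 these were 108 and 93 (23088 and 26037 over all). Most later pairs crossed sets as labelled. In colony 4, whose pairs did not, the medians at weeks 4.5 and 8.5 were -0.11 and 0.68 for the higher group. For the lower group they were 0.04 and -1.08. Of the 84 higher transcripts called by DESeq2 at week 2, 21 were higher in all 6 later pairs (25%, against 1.93% of all transcripts), and of the 33 lower ones 3 were lower in all 6 (9.09%, against 1.72%).

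Within single colonies, the week 2 log2 fold changes had an r of 0.25 with those of week 4.5 and 0.32 with those of week 8.5 in colony 4, across 49344 transcripts. In colony 1 these were -0.03 and 0.06, and in colony 3 they were 0.20 and 0.36. The colony 3 pair crossed sets at every week, B against C at week 2 and B against A later. Its r therefore cannot be told apart from differences between sets. Colony 4 is the colony whose libraries lay in the same set at all weeks. The pH 7.9 libraries labelled colony 1 and colony 3 stood in each other's sets at both later weeks, as if exchanged. A mix-up of labels and a change in response between weeks cannot be told apart in those colonies.

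Finally, the difference between the week 2 effect and the mean of the effects at weeks 4.5 and 8.5 was tested in all 18 libraries. EdgeR called 0 of 57053 transcripts (0%), with 1543 at an unadjusted p below 0.05 (2.70%) and a smallest adjusted p of 0.406. The unadjusted count was 3755 without colony 3 and 569 without colony 4. DESeq2 called 7 of the 18339 to which it gave an adjusted p, 3 with a more positive effect at week 2, and edgeR with the library set as block called 30, 28 of them more positive at week 2. The 2 transcripts on each side with the smallest p are given next, in CPM scaled over the 18 libraries.

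Transcript_77070 was at 1505, 1107 and 2619 CPM in colonies 1, 3 and 4 at pH 7.6 and week 2, and at 10.7, 92.7 and 50.3 CPM at pH 7.9. At weeks 4.5 and 8.5 it lay between 4.97 and 13.2 CPM at pH 7.6 and between 3.93 and 45.6 CPM at pH 7.9. The 3 low pH libraries of week 2 thus stood above each of the other 15, by more than 10-fold. In the fit to the 6 libraries of week 2 the log2 fold change was 5.51 ± 0.83. In the 18-library fit the week 2 effect exceeded the later one by 5.996 ± 0.92 (SE, edgeR adjusted p = 0.406; DESeq2 adjusted p = 9.54e-10).

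Transcript_31226 showed the same outline at a smaller size, at 835, 806 and 953 CPM in colonies 1, 3 and 4 at pH 7.6 and week 2 and at 148, 187 and 96.7 CPM at pH 7.9. Its later levels were 51.4 to 157 CPM at pH 7.6 and 46.9 to 109 CPM at pH 7.9, and these groups overlapped. The week 2 log2 fold change exceeded the later one by 2.74 ± 0.40 (SE, edgeR adjusted p = 0.406; DESeq2 adjusted p = 3.60e-07).

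The other two had no contrast beyond their spread at week 2 and were higher at low pH later. Transcript_66960 was at 37.0, 24.1 and 31.1 CPM at pH 7.6 and 34.6, 38.6 and 29.9 CPM at pH 7.9 in colonies 1, 3 and 4 at week 2. Later it lay between 38.7 and 121 CPM at pH 7.6 and between 10.4 and 27.5 CPM at pH 7.9. The difference of log2 fold changes, week 2 minus later, was -2.20 ± 0.37 (SE, edgeR adjusted p = 0.568), and for Transcript_68325 it was -1.89 ± 0.35 (SE, edgeR adjusted p = 1). All 4 passed 0.05 in DESeq2 and with the library set as block, and in none of the other 11 alternative fits.

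**Figure D5:**
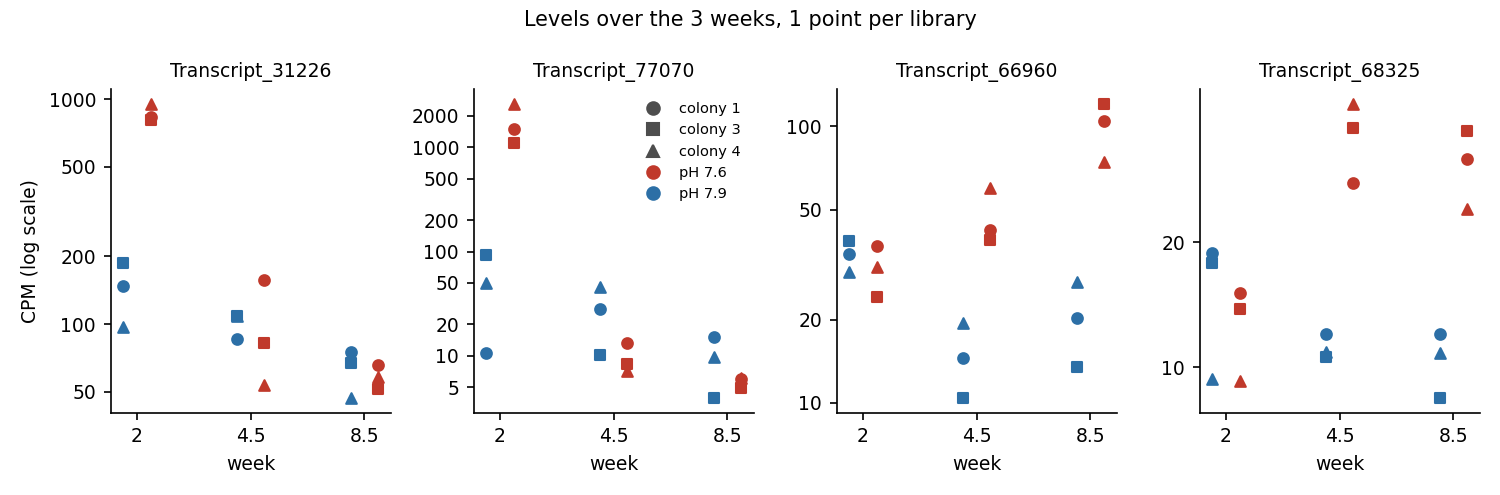
Levels in CPM, on log axes of different ranges, of the 4 transcripts with the smallest p for a difference between the week 2 pH effect and the later one, with 1 point per library, red for pH 7.6 and blue for pH 7.9, and the weeks drawn at even spacing. Transcript_31226 and Transcript_77070 stand apart at pH 7.6 at week 2 only, and Transcript_66960 and Transcript_68325 separate by pH at weeks 4.5 and 8.5 only.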

How the data were processed

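Total RNA of polyps, taken up with a Qiagen kit, was read from one end on an Illumina instrument, per the labels' protocols. The values are raw counts per transcript as the authors deposited them, in 2 lane columns per library. The submitters' processing notes list Trimmomatic 0.36, cutadapt 1.15, FastQC and DESeq2. No source used here names the aligner, the counting program or the transcript set, so reads shared by near-identical transcripts may have been split.

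Lanes were summed. Transcripts with 10 or more counts in 3 or more of the 6 libraries were kept, leaving 0.456% of week 2 counts outside. The main test was edgeR 4.0.16 (R 4.3.3) quasi-likelihood with TMM factors (0.830 to 1.17), colony as block and Benjamini-Hochberg adjustment at 0.05; SE is the log2 fold change over the square root of F. Alternatives used DESeq2 1.42.0 and limma 3.58.1 (voom). Colony fold changes used log2 CPM with prior count 2. Library sets came from average linkage on 1 minus Spearman's correlation, with the tree cut at a set number of 3 groups. The letters A, B and C follow the week 2, pH 7.6 libraries of colonies 1, 3 and 4. Fits to simulated counts were checked first.

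Colonies pair the libraries because fragments of the same colony stood at both pH, per the labels, although the library labelled colony 3, pH 7.9 resembled colony 4 and may be mislabelled; deviations from the pH means correlated at 0.761, 0.246 and 0.350 in colonies 1, 3 and 4. The comparison, its lists and the library sets were chosen with earlier results of these data known. Named transcripts were at most 2 per direction and comparison: called ones by size, otherwise the smallest unadjusted p, with a mean log2 CPM of at least 1 and, at week 2 and later, the same sign in all pairs.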

Additional observations from a re-analysis of the deposited data

How the results depend on the processing

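The week 2 count of 0 in edgeR was unchanged without the replicate block, with DESeq2's size factors, with robust estimation, in limma-voom, with no filter or a minimum of 50 counts, with either lane alone, and with all 18 libraries, with or without the pH 7.9 library of colony 3. It was 117 with DESeq2, 74 with DESeq2 on all 18 libraries and 67 with the library set as block. Leaving out a colony gave 0 to 3 in edgeR and 67 to 187 in DESeq2 (102 without colony 1). The count at an unadjusted p below 0.05, 2208, became 1225 without the replicate block, 8522 with the library set, 1376 with 18 libraries less the pH 7.9 library of colony 3, and 3911 with DESeq2 on 18 libraries, and it ranged from 1345 to 4330 without a colony. For week 2 against later weeks, DESeq2 called 7 and the library set gave 30; the unadjusted count ranged from 569 to 3755 without a colony. The replicate block changed no other call. Scaling by library totals gave 3.57% higher and 3.07% lower transcripts with groups that did not overlap, and leaving out colony 3 gave 14.9% and 14.4%. The lower later list was 41.5% lower at week 2 (median 0.41) with the library set, 58.5% with the set and without colony 3, and 89% without colony 3 alone. Transcript_58 ranged from -0.744 to 0.085 without a colony and turned positive without colony 4 (0.085 in edgeR, 0.069 in DESeq2), with 18 libraries (0.027 and, in DESeq2, 0.044) and without the pH 7.9 library of colony 3 (0.26). Transcript_2337 ranged from -0.565 to 0.15 without a colony and turned positive without the replicate block (0.13), without colony 1 (0.15, and 0.16 in DESeq2) or colony 4 (0.054 and 0.039), with 18 libraries (0.11 and 0.12) and without that library (0.43). The cause was not tested. Depth was not varied beyond single lanes.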
